A study of Rattus norvegicus with 14 samples.

Results

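The genes described here are the folding, degradation and stress-sensing genes of the endoplasmic reticulum, followed through postnatal development of the rat epididymis, the duct in which sperm leaving the testis mature. A list of 44 symbols was matched to the array annotation, and 43 of them had a transcript cluster of their own among the 18166 genes tested; Derl2 had none and was not analysed here. Each of the 43 had 1 such cluster. RNA was taken from pooled, frozen whole epididymides of untreated Sprague-Dawley rats aged 7 days (3 pools), 18 days (4 pools), 28 days (4 pools) and 60 days (3 pools), and each pool was hybridised to 1 RatGene 2.0 ST array. The labels do not say how many animals made a pool, nor that pools came from separate litters, so p-values measure the spread between these pools. The day 7 and day 18 rats were kept with their lactating mothers whereas the older rats fed freely, so age and rearing cannot be told apart. Of the 3 steps between neighbouring ages, that from day 18 to day 28 crosses this change of rearing, and so does the whole span. Whole tissue also mixes cell types, and more cells of a type cannot be told apart from more RNA per cell.

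The endoplasmic reticulum is where secreted and membrane proteins enter the secretory route. Nascent chains pass through the Sec61 channel, are held by the chaperone Hspa5 (BiP) and its J-domain partners, receive disulfide bonds from the protein disulfide isomerases, and are returned to the cytosol for destruction if they do not fold. When unfolded protein accumulates, the sensors Ern1 (IRE1), Atf6 and Eif2ak3 (PERK) switch on chaperone and degradation genes, in part through short promoter elements. Secretory epithelia are known to carry much of this machinery, and the principal cells of the epididymis release large amounts of protein into the lumen.

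All values are RMA log2 signals as deposited. Beside a mean the error is the SD over pools, and beside a difference it is the SE from 1 limma model of all 14 arrays. A gene is called where limma's two-sided p, adjusted by Benjamini-Hochberg over the 18166 genes, is below 0.05. Array medians ran from 5.21 to 5.42, the highest being that of day 28 replicate 2, whose mean correlation with the other day 28 pools (0.9901) was below that of any other pool with its own age. The counts without it are given beside the results. The mean of each of the 43 genes over all arrays lay above 4.92, the 95th percentile of 1343 olfactory and vomeronasal receptor genes, which served as a gauge of background. Epididymal identity was checked on markers of principal cells: the mean of the 9 measured was 4.92 to 5.23 over day 7 pools, 7.54 to 7.94 at day 18, 9.20 to 9.51 at day 28 and 10.73 to 10.93 at day 60. Of these 9, 6 had a day 7 mean at or below the background gauge, and none did at day 60.

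Across the 4 ages 41 of the 43 genes changed by limma's F test, against 60.4% of all genes tested, and 42 did without day 28 replicate 2. The 2 that did not were the transcription factors Xbp1 (adjusted p = 0.142) and Ddit3 (adjusted p = 0.203). The highest mean lay at day 60 for 22 genes, at day 28 for 15, at day 18 for Ddit3 alone and at day 7 for 5, namely Atf4, Creb3l1, Creb3l2, Ppib and Txndc5. In the heat map of all pools, the blocks of chaperones, isomerases and degradation genes turn redder up to day 28, and the block of sensors and transcription factors is mixed.

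Over all 43 genes, 26 rose and 6 fell at day 18 against day 7 (27 and 6 without day 28 replicate 2), where 17.4% of all genes tested were called higher and 20.7% lower; the median difference was 0.39, against 0.012 over all genes. At day 28 against day 18, 33 rose and 0 fell, against 10.5% of all genes higher and 14.3% lower, with a median of 0.32 against -0.021. With each array centred on its own median the count of rises there was 21, and without day 28 replicate 2 it was 30. At day 60 against day 28, 10 rose and 3 fell, against 13.8% of all genes higher and 11.2% lower, and the median was 0.043 (-0.0086 with quantile normalization) against -0.021. The balance at that step depended on scaling, with 6 rises and 5 falls under quantile normalization and 11 rises and 1 fall with each array centred on its median. Without day 28 replicate 1 the count of rises at that step was 6, and without day 28 replicate 2 the count of falls was 5. Over the whole span, day 60 against day 7, 33 rose and 3 fell (34 and 3 without day 28 replicate 2), against 21.7% of all genes higher and 27.6% lower, with a median of 0.78 against -0.026. These comparisons share pools, and the genes were listed with earlier results of the same data known.

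**Figure D1:**
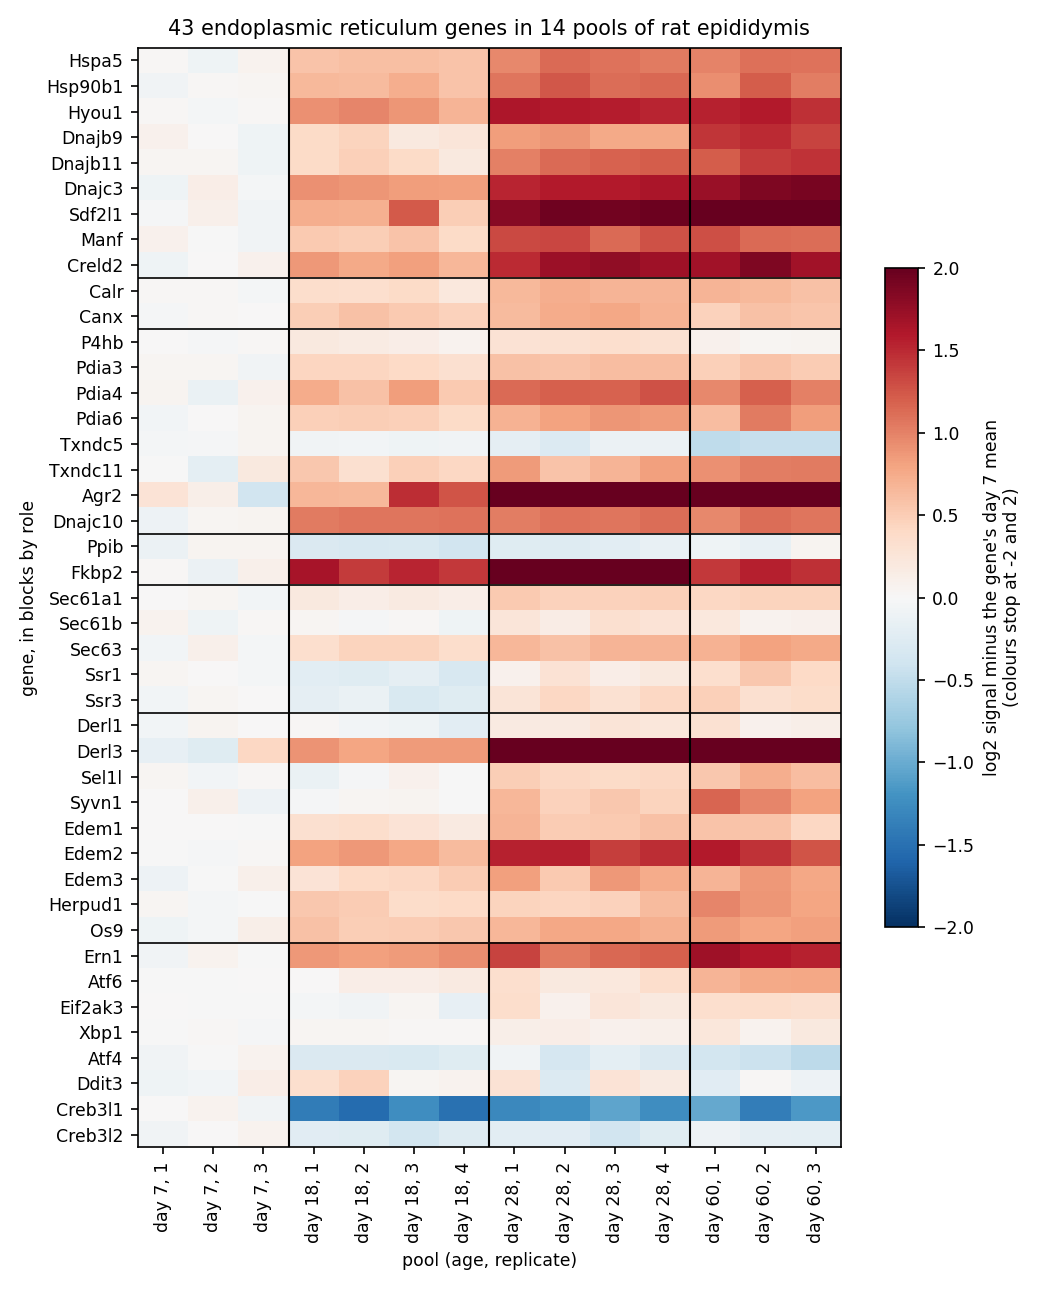
Each row is 1 of 43 endoplasmic reticulum genes, in blocks by role, and each column 1 of 14 pools from day 7 (left) to day 60 (right); colour gives the log2 signal minus the gene's own day 7 mean, and stops at 2 on either side. Agr2, Derl3 and Fkbp2 reach the end of the red scale in every day 28 pool, and Creb3l1 is the deepest blue row from day 18 on.

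Several of these genes share a promoter element. The endoplasmic reticulum stress element (ERSE, CCAAT and CCACG with 9 free bases between them) and its variant ERSE-II (ATTGG and CCACG with 1 free base between them) are known from mammalian cells as sites where Atf6 acts together with the factor NF-Y. ERSE was first described on promoters of chaperone genes and ERSE-II on that of Herpud1, so matches in those are no independent find. The list itself was drawn up from folding, degradation and stress genes. An excess of matches over all windows could be foreseen from that choice and tests nothing. RefSeq promoter windows of the build GRCr8, from 250 bases before the transcription start to 50 after it, were found for 35 of the 43 genes (36 windows, as Hyou1 has 2 starts). Searched on both strands, ERSE matched in 8 of the 36 windows (22.2%), against 22 of all 33469 windows in the table (0.0657%). ERSE-II matched in 3 of 36 (8.33%), against 17 of 33469 (0.0508%). Among the 15971 windows of genes tested, members included, ERSE matched in 18 (0.113%) and ERSE-II in 12 (0.0751%). The stretches printed here, written 5′ to 3′ on the gene's own strand with the matches in capitals, are those of the 2 main chaperones, of Hyou1 with 2 ERSE-II matches, of 2 genes that rise steeply with age and of Xbp1, which does not pass the test; a match that begins with CGTGG lies on the other strand.
Hspa5: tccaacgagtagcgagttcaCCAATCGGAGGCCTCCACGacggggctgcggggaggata
Hsp90b1: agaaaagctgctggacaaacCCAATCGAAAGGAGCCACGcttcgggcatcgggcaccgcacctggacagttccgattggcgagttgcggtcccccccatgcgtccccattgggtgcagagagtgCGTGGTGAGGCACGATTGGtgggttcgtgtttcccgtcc
Hyou1: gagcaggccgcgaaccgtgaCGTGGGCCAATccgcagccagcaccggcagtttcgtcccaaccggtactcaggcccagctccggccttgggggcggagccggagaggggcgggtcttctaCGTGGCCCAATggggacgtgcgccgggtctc
Creld2: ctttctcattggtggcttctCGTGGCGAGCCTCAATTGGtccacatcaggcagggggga
Derl3: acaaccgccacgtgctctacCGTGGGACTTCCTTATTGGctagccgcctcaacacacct
Xbp1: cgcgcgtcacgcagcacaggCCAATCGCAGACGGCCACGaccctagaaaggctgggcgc

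In GRCr8 these stretches lie upstream of the annotated start of each gene. The one of Hspa5 is chr3:38452953-38453011 on the plus strand and ends 5 bases before the start. That of Hsp90b1 is chr7:23012327-23012489 on the minus strand and holds 2 ERSE matches, at positions -176 to -158 and -72 to -54, counted from -1 for the base before the start. The Hyou1 stretch, from the 1 of its 2 windows with matches, is chr8:53602674-53602824 on the plus strand. The others are chr7:121789219-121789277 on the plus strand for Creld2, chr20:12766581-12766639 on the minus strand for Derl3 and chr14:84604538-84604596 on the plus strand for Xbp1. The remaining matches of either kind were in Calr, Canx, Dnajc3, Dnajb11 and Herpud1, and the Dnajb11 match runs over the start itself.

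Of the 11 genes with a match, 10 were called higher at day 60 than at day 7 and 0 lower, with a median log2 difference of 1.06. Of the 24 genes with a window and no match, 16 were called higher and 3 lower, with a median of 0.57. Over all genes, 21.7% were called higher and 27.6% lower in that comparison. Genes with and without a match also differ in role: Atf4, Creb3l1, Creb3l2, Ddit3 and Eif2ak3 are all without one, while Xbp1 of the same block has one. In the block of Hsp70 and Hsp90 chaperones, Dnajb9 and Sdf2l1 have a window and no match. Match and role therefore overlap in part, and the part of either in the rises was not tested. The 18 further tested genes with ERSE or ERSE-II did not share a direction: at day 60 against day 7, 6 of them were called higher and 5 lower, with a median of -0.0069. Picked out after the values were seen, the oxidase gene Ero1b stood highest among these 18 (1.71 ± 0.11) and the replication gene Cdc45 lowest (-1.70 ± 0.11). The shorter UPRE core TGACGTGG, known as a site of Xbp1 and Atf6, matched in 3 of 36 windows (Dnajc10, Hyou1 and Txndc11; 8.33% against 0.595% of all windows), and in Hyou1 it overlaps an ERSE-II match. The composite element TGATGNAA, associated with Atf4 and its C/EBP partners, matched in 1 of 36 (Herpud1; 2.78% against 3.98%). Among windows of genes tested the shares were 0.689% for the UPRE core and 3.02% for the composite element. A match is a run of letters, and binding was not measured.

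**Figure D2:**
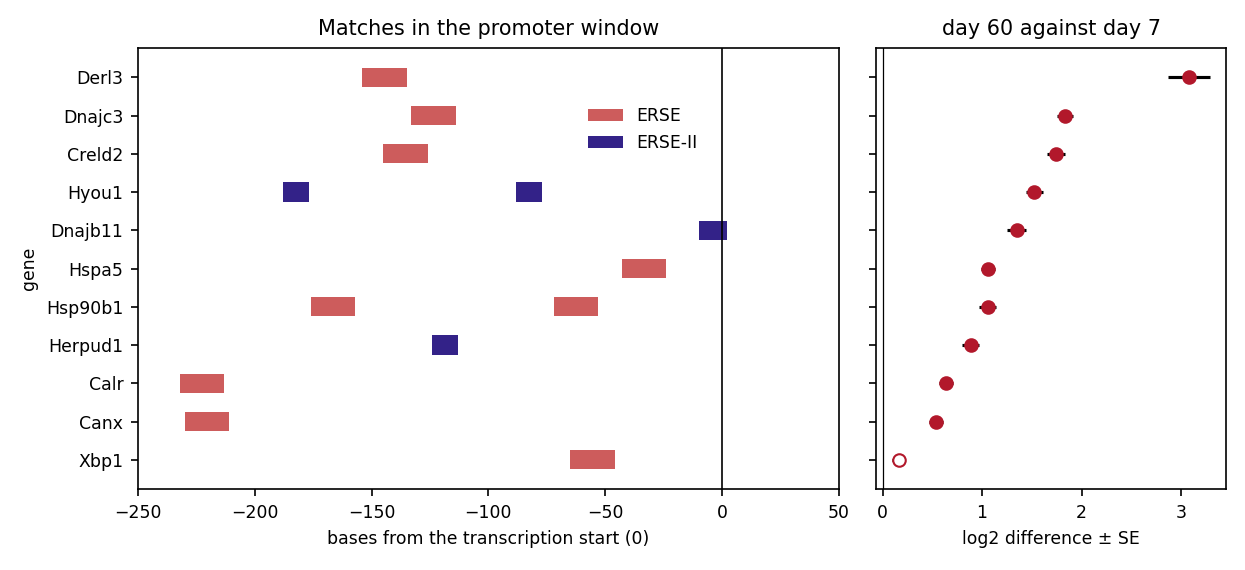
The left panel places each ERSE or ERSE-II match in the promoter windows of 11 genes by its distance in bases from the transcription start, and the right panel gives the log2 difference of the gene at day 60 against day 7 with its SE (filled where called). Genes run by that difference, with Derl3 at the top (3.08) and Xbp1, open circle, at the bottom (0.16).

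The block of Hsp70 and Hsp90 chaperones, in which the secreted proteins Manf and Creld2 were also placed, rose as a whole at both early steps. At day 18 against day 7, 9 of 9 were called higher, and 9 of 9 again at day 28 against day 18, against 17.4% and 10.5% of all genes. At day 60 against day 28, 3 of 9 were called higher and 0 lower, against 13.8% and 11.2% of all genes. Hspa5, the central Hsp70 chaperone of the compartment, had log2 signals of 11.42, 11.32 and 11.48 at day 7, 11.98, 12.01, 12.01 and 11.97 at day 18, 12.37, 12.53, 12.50 and 12.45 at day 28 and 12.40, 12.51 and 12.49 at day 60. No day 18 pool reached any day 28 pool or fell to any day 7 pool, whereas the day 28 and day 60 pools overlapped. Hspa5 rose by 0.59 ± 0.069 to day 18 (adjusted p = 7.68e-06) and by 0.47 ± 0.064 to day 28 (adjusted p = 8.01e-05), while the difference of 0.0055 ± 0.069 at the last step did not pass (adjusted p = 0.966). From day 7 to day 60 this made it 2.09-fold higher.

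Hsp90b1 (GRP94), the Hsp90 of the compartment, followed a course much like that of Hspa5, with differences of 0.64 ± 0.082, 0.50 ± 0.076 and -0.089 ± 0.082 at the 3 steps, the last not called. Hyou1, which exchanges nucleotide on Hspa5, differed by 0.86 ± 0.077, 0.71 ± 0.071 and -0.048 ± 0.077, the last not called. The J-domain proteins hand clients to Hspa5. Dnajc3 rose by 0.86 ± 0.076, 0.72 ± 0.071 and 0.25 ± 0.076, and Dnajb11 rose by 0.36 ± 0.087 and 0.78 ± 0.081 with 0.21 ± 0.087 at the last step, not called. The call of Dnajc3 at the last step was lost under 7 of 22 alternatives. Dnajb9 (ERdj4), a J-domain protein that restrains Ern1 in rodent cells, had signals of 7.54, 7.45 and 7.36 at day 7, 7.84, 7.89, 7.64 and 7.69 at day 18, 8.28, 8.33, 8.21 and 8.21 at day 28 and 8.87, 8.94 and 8.80 at day 60. Its values did not overlap between any neighbouring ages, and it was called higher at each step (0.32 ± 0.082, 0.49 ± 0.075 and 0.61 ± 0.082; adjusted p = 0.00638, 0.000233 and 8.46e-05).

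Sdf2l1, which sits in a complex with Dnajb11, had the largest span of the chaperone block. Its signals were 7.40, 7.53 and 7.36 at day 7, 8.16, 8.14, 8.65 and 7.92 at day 18, 9.25, 9.38, 9.36 and 9.40 at day 28 and 9.86, 9.66 and 9.86 at day 60. No pools of neighbouring ages overlapped, although day 18 replicate 3 stood above the other day 18 pools. It rose by 0.79 ± 0.13, 1.13 ± 0.12 and 0.44 ± 0.13 at the 3 steps and was 5.13-fold higher at day 60 than at day 7 (adjusted p = 2.52e-09); its call at the last step was lost under 6 of 22 alternatives. The stress-induced secreted protein Manf rose by 0.49 ± 0.080 and 0.77 ± 0.074, and Creld2, another stress-induced secreted protein, by 0.78 ± 0.086 and 0.89 ± 0.080. Neither was called at the last step (-0.085 ± 0.080 for Manf and 0.078 ± 0.086 for Creld2). The lectin chaperones, which hold glycoproteins by their sugar, were called higher at both early steps: Calr rose by 0.32 ± 0.067 and 0.36 ± 0.062, and Canx by 0.52 ± 0.067 and 0.19 ± 0.062, with 0 of 2 called at the last step. The middle step of Canx lost its call under 9 of 22 alternatives.

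**Figure D3:**
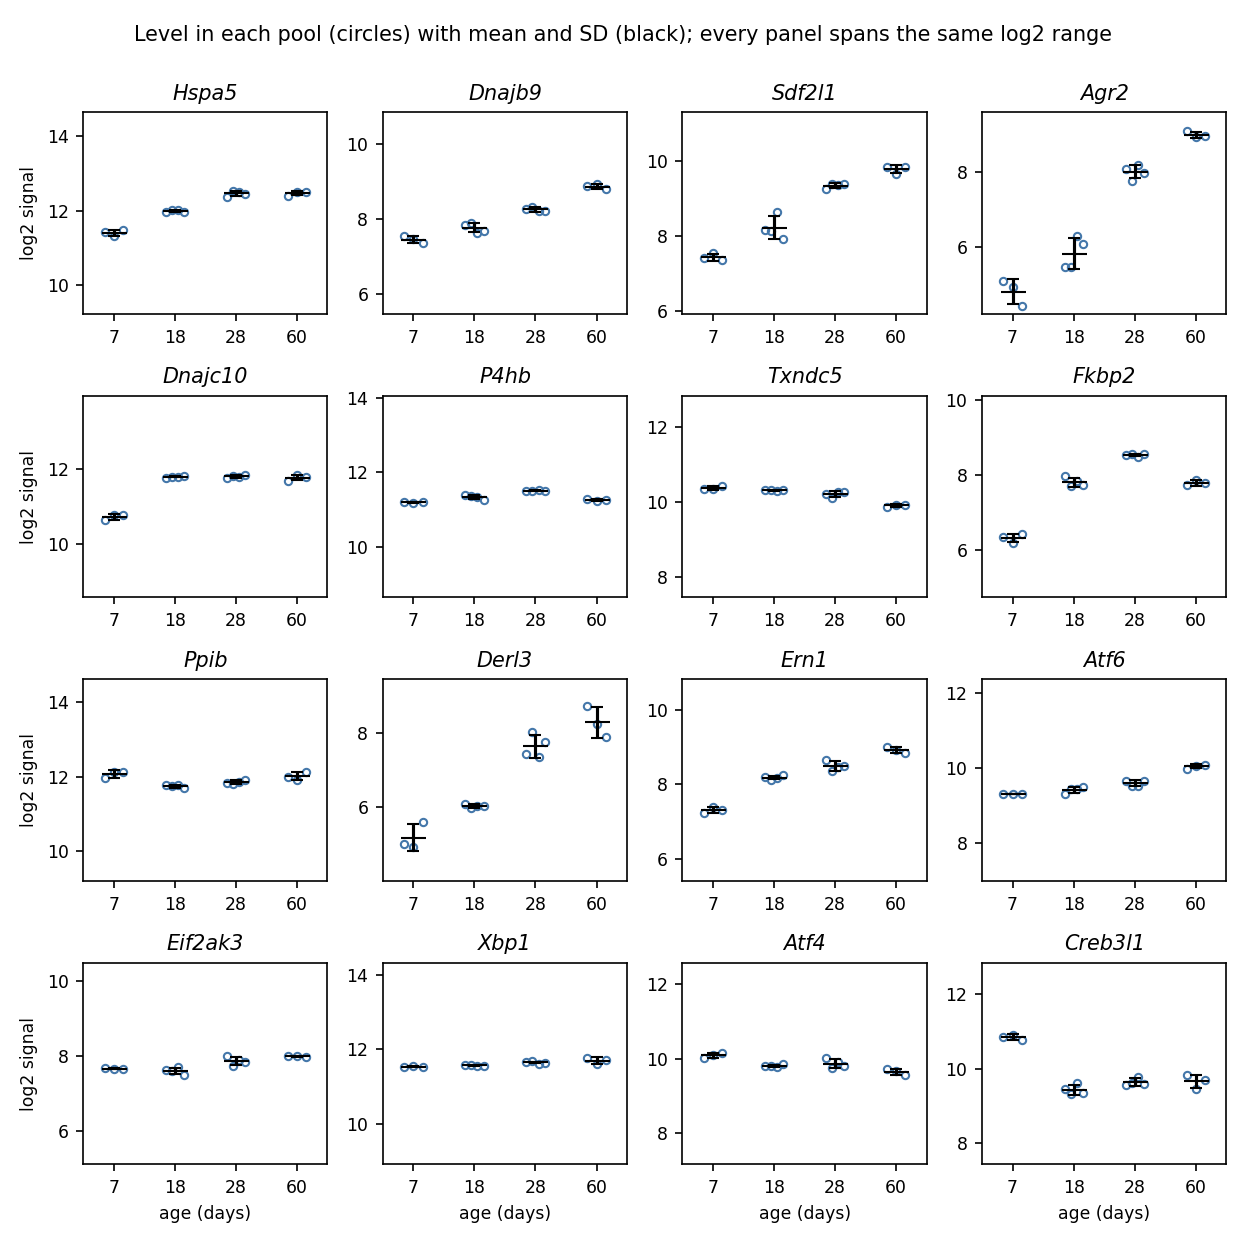
Log2 signal of 16 genes in each pool (circles) at the 4 ages on the horizontal axis, with mean and SD in black; the panels have different offsets but the same span. Agr2, Derl3 and Sdf2l1 climb through all 4 ages, Fkbp2 peaks at day 28 (8.53 ± 0.033), Xbp1 is nearly level, and Creb3l1 drops once, between day 7 and day 18.

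Among the 8 disulfide isomerases and reductases Agr2 had the widest span. Agr2 is a disulfide isomerase known in mouse for mucin folding in goblet cells. Its log2 signals were 5.08, 4.92 and 4.42 at day 7, 5.47, 5.45, 6.29 and 6.07 at day 18, 8.10, 7.78, 8.20 and 7.99 at day 28 and 9.09, 8.94 and 8.98 at day 60. The pools of the 4 ages did not overlap, and the day 7 pools lay on either side of the background gauge of 4.92, so the size of the whole-span rise is uncertain. It rose by 1.01 ± 0.20 (adjusted p = 0.000856), 2.19 ± 0.18 (adjusted p = 6.95e-07) and 0.99 ± 0.20 (adjusted p = 0.00218), together 18.3-fold from day 7 to day 60. The middle step was larger than the first by 1.18 ± 0.33 (adjusted p = 0.0169), and the last differed from the middle step by -1.20 ± 0.33 (adjusted p = 0.0263).

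Dnajc10 (ERdj5), a J-domain reductase that opens disulfides of proteins bound for degradation, was called at the first step alone among the 3. Its signals were 10.63, 10.77 and 10.78 at day 7, 11.78, 11.80, 11.80 and 11.81 at day 18, 11.76, 11.82, 11.81 and 11.85 at day 28 and 11.70, 11.84 and 11.79 at day 60. Every pool from day 18 on lay above every day 7 pool, and the 3 later ages overlapped. The rise to day 18 was 1.07 ± 0.067 (adjusted p = 1.46e-08), and the next step was smaller by a tested difference of -1.06 ± 0.11 (adjusted p = 8.43e-06). The general isomerases Pdia3, Pdia4 and Pdia6 rose at both early steps, by 0.39, 0.67 and 0.46 to day 18 and by 0.20, 0.52 and 0.35 to day 28. Txndc11, a thioredoxin-like protein of the membrane, rose by 0.44 and 0.30. The middle step lost its call under 6 of 22 alternatives for Txndc11 and under 4 of 22 for Pdia3.

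P4hb and Txndc5 were the 2 isomerases called lower at the last step. P4hb, a disulfide isomerase that is also a subunit of collagen prolyl 4-hydroxylase, had signals of 11.21, 11.17 and 11.21 at day 7, 11.40, 11.36, 11.34 and 11.26 at day 18, 11.49, 11.51, 11.53 and 11.50 at day 28 and 11.29, 11.24 and 11.26 at day 60. Its day 60 pools lay below all day 28 pools (-0.25 ± 0.062, adjusted p = 0.00944). This call was lost with arrays centred on their medians (adjusted p = 0.138) and with the 2 ages fitted alone (adjusted p = 0.056), and its small rise at the middle step (0.17 ± 0.058) was lost under 16 of 22 alternatives. Between day 60 and day 7 its difference of 0.064 ± 0.066 was not called. Txndc5, an isomerase also known from fibroblasts and endothelium, had signals of 10.34, 10.36 and 10.44 at day 7, 10.31, 10.32, 10.29 and 10.31 at day 18, 10.20, 10.11, 10.27 and 10.26 at day 28 and 9.87, 9.92 and 9.92 at day 60. It fell by 0.30 ± 0.065 at the last step (adjusted p = 0.00347, or 0.0667 with arrays centred on their medians), and all day 60 pools were below all others. Markers of fibroblasts and matrix-forming cells were called lower in 6 of 10 and higher in 1 at that step. Their list mean was 10.13 to 10.18 in day 60 pools and 10.34 to 10.53 in day 28 pools. The part of these cells in the falls of P4hb and Txndc5 was not tested. Over the 8 isomerases, 6 were called higher and 0 lower at day 18, 6 and 0 at day 28, and 1 and 2 at day 60, each against the age before. Of all genes, 17.4%, 10.5% and 13.8% were called higher at these steps, and 20.7%, 14.3% and 11.2% lower.

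The 2 prolyl isomerases went opposite ways at the first step. Fkbp2 (FKBP13) had signals of 6.34, 6.19 and 6.41 at day 7, 7.97, 7.71, 7.84 and 7.72 at day 18, 8.53, 8.55, 8.48 and 8.55 at day 28 and 7.72, 7.87 and 7.77 at day 60. Its day 28 pools were above all others, and day 18 and day 60 pools overlapped. It rose by 1.50 ± 0.082 (adjusted p = 3.57e-09) and 0.72 ± 0.076 (adjusted p = 7.03e-06), and then fell by 0.74 ± 0.082 at day 60 against day 28 (adjusted p = 1.78e-05). It had the largest rise of the 43 genes to day 18 and the largest fall to day 60. Ppib (cyclophilin B), which also takes part in collagen modification, had signals of 11.96, 12.12 and 12.13 at day 7, 11.78, 11.75, 11.77 and 11.69 at day 18, 11.83, 11.81, 11.86 and 11.92 at day 28 and 11.98, 11.91 and 12.13 at day 60. Ppib fell by 0.32 ± 0.074 to day 18 (adjusted p = 0.00303), and at the other 2 steps it was not called. Beside the falls of Ppib and Creb3l1, markers of fibroblasts and matrix-forming cells were lower at day 18: 10 of 10 were called, against 20.7% of all genes. Their mean ran from 10.23 to 10.39 in day 18 pools against 11.16 to 11.30 in day 7 pools. The dimmest of the 10 at day 18 was Pdgfrb, with a mean of 7.88, and the part of these cells in the falls was not tested.

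At day 28 against day 18, 5 of 5 were called higher: the channel subunits Sec61a1 (0.32 ± 0.057) and Sec61b (0.26 ± 0.067), the J-domain partner Sec63 (0.26 ± 0.064), and Ssr1 (0.41 ± 0.070) and Ssr3 (0.56 ± 0.069), subunits of the translocon-associated complex. At day 18 against day 7, 1 of 5 was called higher (Sec63, 0.39 ± 0.070) and 2 lower (Ssr1, -0.24 ± 0.075, and Ssr3, -0.21 ± 0.075). Of all genes, 10.5% were called higher and 14.3% lower at day 28 against day 18, and 17.4% and 20.7% at day 18 against day 7. The 2 steps of Ssr3 differed by 0.77 ± 0.12 (adjusted p = 0.000334) and those of Ssr1 by 0.65 ± 0.12 (adjusted p = 0.00137). At day 60 against day 28, 1 of 5 was called higher (Ssr1, 0.25 ± 0.075) and 0 lower, against 13.8% and 11.2% of all genes. Ssr1 lost that call under 7 of 22 alternatives and its first-step fall under 4, and Ssr3 lost its first-step fall under 8. With arrays centred on their medians Sec61b (adjusted p = 0.102) and Sec63 (adjusted p = 0.0851) lost the middle-step call, which leaves 3 of 5. At the same 2 steps smooth muscle markers were called lower in 5 of 7 at day 18 and higher in 6 of 7 at day 28, with a list mean of 9.52 to 9.79 in day 28 pools against 8.89 to 9.21 in day 18 pools. Endothelial markers were called higher in 4 of 5 at day 28 (7.06 to 7.26 in day 28 pools against 6.72 to 6.88 in day 18 pools), and the part of either cell type in the middle-step rises was not tested.

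Of the 9 measured degradation genes 6 rose to day 18, 8 to day 28 and 3 to day 60, and 0 fell at any of the 3 steps. Of all genes, 17.4%, 10.5% and 13.8% were called higher at these steps, and 20.7%, 14.3% and 11.2% lower. With arrays centred on their medians Derl1 (adjusted p = 0.0627), Edem1 (adjusted p = 0.0638), Edem3 (adjusted p = 0.0567) and Os9 (adjusted p = 0.202) lost the call to day 28, which leaves 4, and Edem1 also that to day 18 (adjusted p = 0.0692). Derl3, a derlin of secretory cells at the exit channel for misfolded proteins, had signals of 5.02, 4.94 and 5.60 at day 7, 6.09, 5.98, 6.05 and 6.04 at day 18, 7.43, 8.02, 7.35 and 7.74 at day 28 and 8.70, 8.23 and 7.89 at day 60. Pools of day 7, day 18 and day 28 did not overlap, but those of day 28 and day 60 did, and the day 7 pools were close to the background gauge. It rose by 0.85 ± 0.20 (adjusted p = 0.0033), 1.59 ± 0.18 (adjusted p = 1.67e-05) and 0.64 ± 0.20 (adjusted p = 0.0301). The call at the last step was lost under 8 of 22 alternatives. Its paralog Derl1 had a small change, with 0.30 ± 0.072 at the middle step, called, and 0.17 ± 0.084 over the whole span, not called.

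Sel1l and Syvn1 form the core of the main ubiquitin ligase of the membrane. Both were near 0 at the first step (-0.017 ± 0.073 for Sel1l and 0.015 ± 0.090 for Syvn1, not called) and rose at the middle one (0.44 ± 0.068 for Sel1l and 0.51 ± 0.084 for Syvn1). Only Syvn1 of the pair was also called at the last step (0.46 ± 0.090; Sel1l 0.20 ± 0.073, adjusted p = 0.0572). Edem1, Edem2 and Edem3, which trim mannose from glycoproteins marked for removal, rose by 0.28, 0.77 and 0.40 to day 18 and by 0.29, 0.72 and 0.33 to day 28. The lectin Os9, which reads the trimmed sugar, rose by 0.53 and 0.20, and the second of these calls was lost under 11 of 22 alternatives. Herpud1, a scaffold of the ligase complex, rose at the first step (0.45 ± 0.078) and the last (0.40 ± 0.078), while its middle step of 0.035 ± 0.072 was not called. Its last step was not called different from the middle one.

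**Figure D4:**
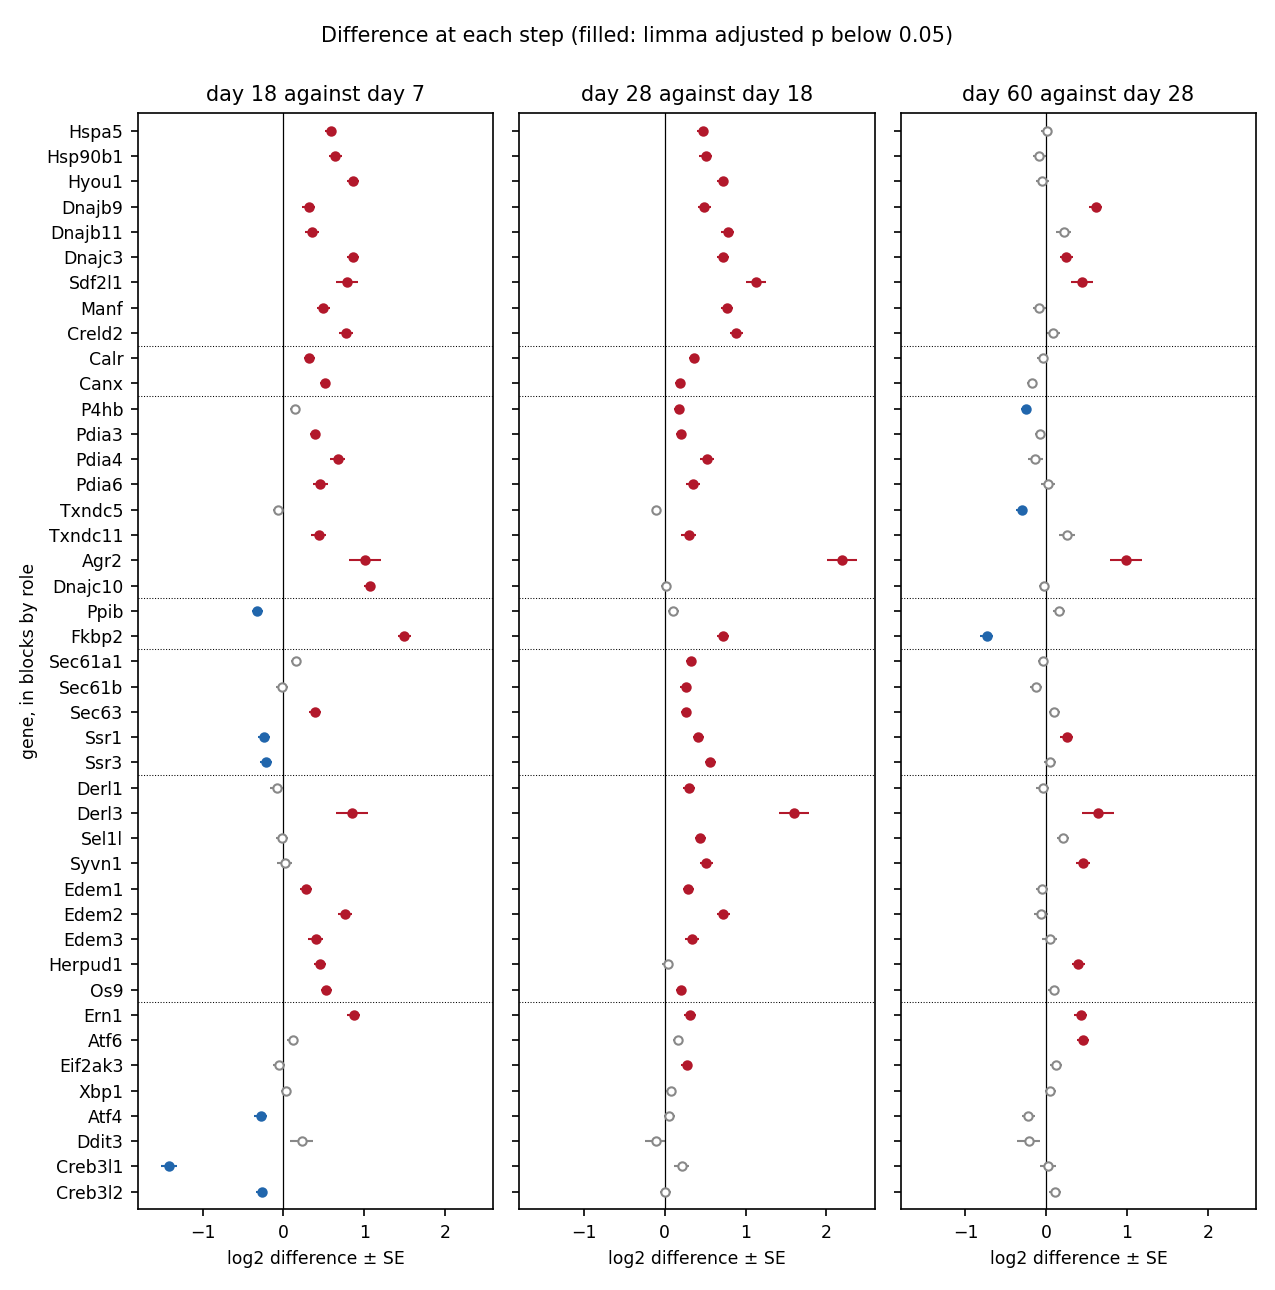
Log2 difference with SE of each of 43 genes, in blocks by role, at the 3 steps between neighbouring ages; red and blue filled points were called higher and lower by limma, and open grey points were not called. Filled red and blue points number 26 and 6 at the first step, 33 and 0 at the second and 10 and 3 at the third.

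The 3 sensors were each called higher at day 60 than at day 7; for none of them was the last step called different from the middle one. Ern1 (IRE1), whose nuclease splices Xbp1 RNA, had signals of 7.24, 7.39 and 7.31 at day 7, 8.19, 8.13, 8.17 and 8.25 at day 18, 8.66, 8.35, 8.46 and 8.51 at day 28 and 9.00, 8.91 and 8.85 at day 60. Pools of neighbouring ages did not overlap, and Ern1 was called higher at all 3 steps, by 0.87 ± 0.082 (adjusted p = 8e-07), 0.31 ± 0.075 (adjusted p = 0.00749) and 0.43 ± 0.082 (adjusted p = 0.00154). At day 60 it stood 3.04-fold above day 7. Atf6, a membrane-bound transcription factor freed by cleavage, had signals of 9.31, 9.30 and 9.32 at day 7, 9.31, 9.44, 9.45 and 9.50 at day 18, 9.65, 9.51, 9.53 and 9.66 at day 28 and 9.99, 10.07 and 10.09 at day 60. All day 60 pools were above all others, and its last step of 0.46 ± 0.072 was called (adjusted p = 0.000326). Eif2ak3 (PERK), the kinase that slows translation, had signals of 7.67, 7.66 and 7.64 at day 7, 7.62, 7.60, 7.70 and 7.49 at day 18, 8.00, 7.74, 7.90 and 7.85 at day 28 and 7.99, 8.00 and 7.98 at day 60. It was called at the middle step only (0.27 ± 0.070, adjusted p = 0.011), and a difference between its steps was not shown (adjusted p = 0.0775 and 0.474). With arrays centred on their medians the middle-step calls of Ern1 (adjusted p = 0.0574) and Eif2ak3 (adjusted p = 0.0936) were lost.

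None of the 5 transcription factors other than Atf6 was called higher at any step. Xbp1 had signals of 11.53, 11.57 and 11.52 at day 7, 11.58, 11.57, 11.56 and 11.57 at day 18, 11.65, 11.67, 11.62 and 11.65 at day 28 and 11.77, 11.61 and 11.73 at day 60. Its largest difference, 0.16 ± 0.068 at day 60 against day 7, was not called (adjusted p = 0.0631), although the pools of those ages did not overlap. It was called under 5 of 22 alternatives, for example with quantile normalization (0.23, adjusted p = 0.00658). One cluster value cannot separate spliced from unspliced Xbp1 RNA. Atf4, translated when Eif2ak3 is active, had signals of 10.02, 10.09 and 10.16 at day 7, 9.79, 9.81, 9.79 and 9.85 at day 18, 10.02, 9.75, 9.90 and 9.81 at day 28 and 9.72, 9.66 and 9.56 at day 60. Atf4 fell by 0.28 ± 0.078 to day 18 (adjusted p = 0.0103), a call lost without day 7 replicate 3 (adjusted p = 0.051), and its day 60 pools were all below its day 7 pools (-0.44 ± 0.084, adjusted p = 0.00039). Ddit3 (CHOP), a factor of lasting stress, was not called at any step, and its means were 5.72 ± 0.11, 5.95 ± 0.21, 5.84 ± 0.27 and 5.62 ± 0.13 in order of age.

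Creb3l1 (OASIS), a factor related to Atf6 that drives collagen secretion in bone of mice, had the largest fall of the 43 genes. Its signals were 10.85, 10.91 and 10.77 at day 7, 9.45, 9.31, 9.61 and 9.36 at day 18, 9.55, 9.62, 9.78 and 9.60 at day 28 and 9.82, 9.47 and 9.70 at day 60. Every later pool lay below every day 7 pool, and the 3 later ages overlapped. It fell by 1.41 ± 0.098 to day 18, 2.66-fold lower (adjusted p = 3.98e-08). Its relative Creb3l2 fell by 0.27 ± 0.073 at the same step (adjusted p = 0.00832). Over the block of 8 sensors and factors 1 rose and 3 fell at day 18, 2 rose and 0 fell at day 28, and 2 rose and 0 fell at day 60, each against the age before. Of all genes, 17.4%, 10.5% and 13.8% were called higher at these steps, and 20.7%, 14.3% and 11.2% lower.

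The last step was set against the middle one as their signed difference, which is negative both where a rise became smaller and where it turned into a fall. In 17 of the 43 genes that difference was called negative and in 0 positive, against 5.00% and 7.68% of all genes. With each array centred on its median the count was 7 negative, without day 28 replicate 2 it was 15, and without day 28 replicate 3 or replicate 4 it was 10; without replicate 4 there was also 1 positive. The steepest were Fkbp2 (-1.46 ± 0.14), Agr2 (-1.20 ± 0.33) and Manf (-0.86 ± 0.13). Fkbp2 and P4hb are the ones of the 17 that were called higher at the middle step and lower at the last. The block of Hsp70 and Hsp90 chaperones made up 7 of the 17, the lectin chaperones 2 and sensors and factors 0. The middle step minus the first was called positive in 9 genes (20.9%) and negative in 5 (11.6%), or in 10 and 6 without day 28 replicate 2. Among all genes 11.4% were called positive and 11.5% negative, so the negative share was near that of all genes. Without day 18 replicate 1 the 2 counts were 5 and 3, without day 18 replicate 4 there were 5 positive, and without day 18 replicate 2 or day 7 replicate 2 there were 3 negative. The positive ones were led by Creb3l1, whose first step was a fall (1.62 ± 0.16), and Agr2. The negative ones were led by Dnajc10 and Fkbp2.

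**Figure D5:**
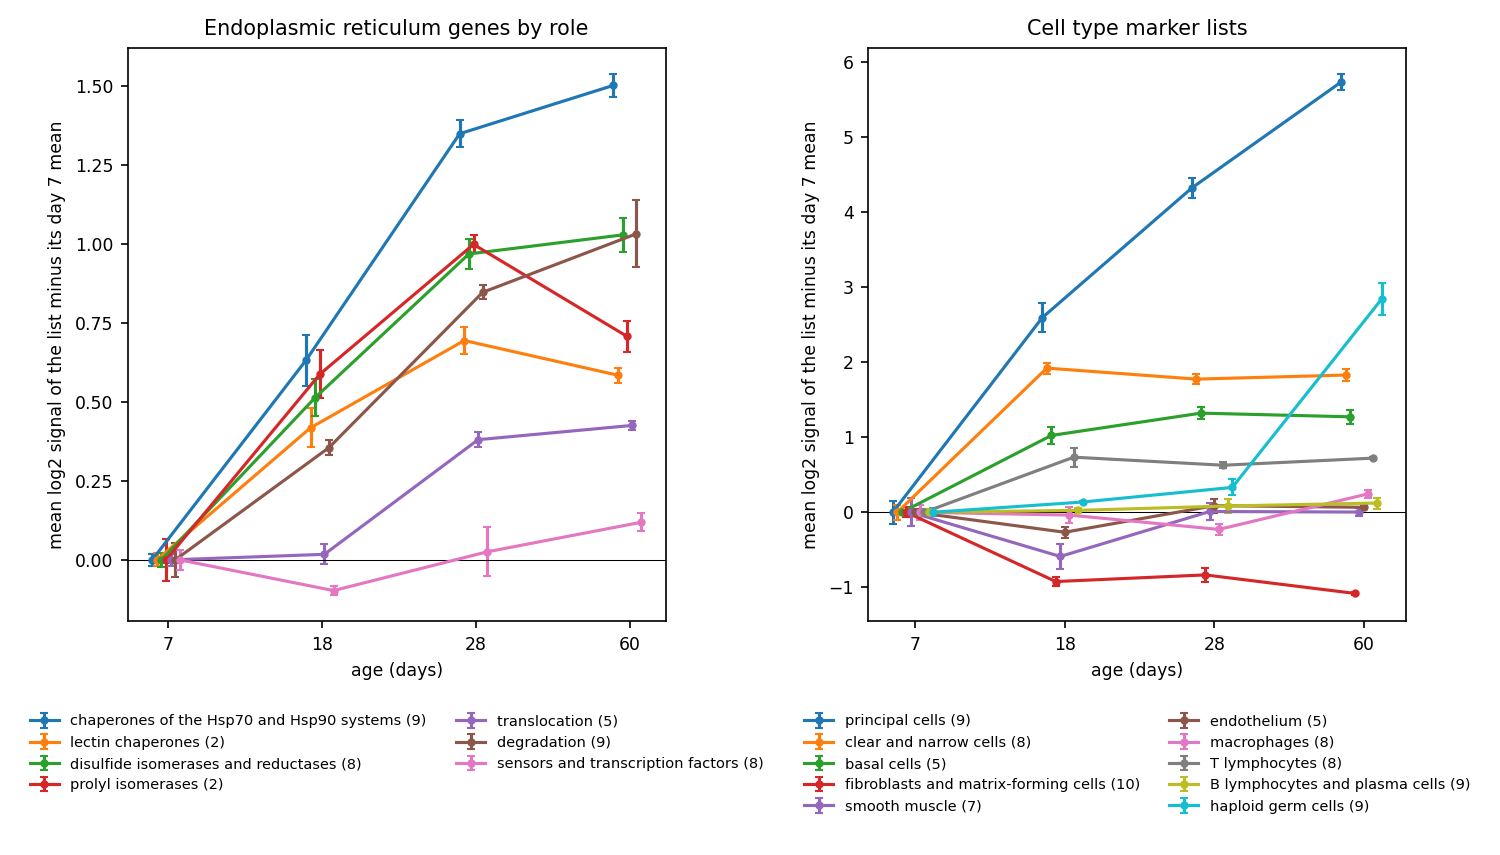
Mean log2 signal of each list minus its day 7 mean, with SD over pools, against age; the left panel holds the 43 genes in 7 blocks by role and the right panel 10 lists of cell type markers, with the number of genes in brackets and a wider axis. The block of Hsp70 and Hsp90 chaperones climbs most on the left, sensors and factors stay near 0, and principal cell markers climb most on the right.

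Marker lists moved beside these genes. Of the 9 principal cell markers 8 were called higher and 1, Cftr, lower at day 60 against day 7, beside 21.7% and 27.6% of all genes. The part of these cells in the rises of 33 of the 43 genes was not tested. Markers of clear and narrow cells (6 of 8 higher, 0 lower) and of basal cells (3 of 5 higher, 1 lower) were mostly called higher over the whole span, as were those of T lymphocytes (7 of 8 higher, 0 lower), and their part was not tested either. Plasma cells are known to be rich in Derl3. Of 9 markers of B lymphocytes and plasma cells 1 was called higher at day 60 against day 7 (Jchain, 0.73 ± 0.18) and 0 lower. The list mean was 4.87 to 5.01 in day 60 pools against 4.80 to 4.87 in day 7 pools. At day 60, 4 of these 9 had a mean at or below the background gauge. Jchain had a mean of 4.74 at day 60, below the background gauge, and Mzb1, a chaperone of plasma cells, a mean of 4.73 there and 4.71 at day 7. The part of plasma cells in the rise of Derl3 was not tested. Haploid germ cell markers were called higher in 7 of 9 at day 60 against day 28, where 13.8% of all genes were called higher and 11.2% lower. Their list mean was 6.74 to 7.15 in day 60 pools and 4.30 to 4.55 in day 28 pools. Macrophage markers were called higher in 5 of 8 and lower in 0 at that step, with a list mean of 7.80 to 7.91 in day 60 pools and 7.27 to 7.43 in day 28 pools. Beside the rises of Dnajb9, Ern1 and Atf6 at day 60 against day 28, the part of germ cell and macrophage RNA was not tested.

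Genes of the same route that were not on the list were taken from 9 further lists (93 of 101 genes measured). Between day 60 and day 7, 45 of the 93 were called higher and 8 lower, beside 21.7% and 27.6% of all genes, with a median difference of 0.20, against -0.026 over all genes. Of the signal peptidase and signal recognition particle genes 8 of 11 rose and 0 fell over that span, and Sec11c, a catalytic subunit of signal peptidase, stood out with rises of 0.92 ± 0.11, 1.33 ± 0.10 and 0.75 ± 0.11 at the 3 steps. The oligosaccharyltransferase, which attaches N-glycans, had 8 of 11 higher and 0 lower, among them Rpn2 (0.85 ± 0.071) and Ostc (0.76 ± 0.11). Of the remaining translocation genes 4 of 7 rose, among them Sil1 (0.99 ± 0.11), which like Hyou1 exchanges nucleotide on Hspa5. Among genes of glucose trimming 3 of 7 rose, and Uggt1, the folding sensor for glycoproteins, was the largest (1.08 ± 0.091).

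Of the thiol oxidases 5 of 12 rose and 2 fell over the whole span: Qsox1, a sulfhydryl oxidase that is also secreted, rose by 2.52 ± 0.076 and Ero1b, which recharges the disulfide isomerases, by 1.71 ± 0.11, whereas the peroxiredoxin Prdx4 fell by 1.18 ± 0.092. Of the other degradation genes 6 of 11 rose and 0 fell, led by the lectin Erlec1 (1.17 ± 0.088). Export and retrieval genes had 4 of 13 higher and 3 lower, shares near those of all genes (21.7% and 27.6%). The coat subunit Sec23b rose by 1.26 ± 0.069, while its paralog Sec23a fell by 0.87 ± 0.091 and the retrieval receptor Kdelr3 by 1.46 ± 0.11. At the first step, where fibroblast markers were lower, Kdelr3 had a difference of -1.32 ± 0.10 and Sec23a of -0.90 ± 0.085.

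The branch that runs through Eif2ak3 and Atf4 can switch on targets of the integrated stress response. Other signals can as well, and the cause of changes in these targets was not tested. Over the whole span 4 of 11 were called higher and 2 lower, beside 21.7% and 27.6% of all genes, with a median of 0.059. The cystine transporter Slc7a11 rose by 5.87 ± 0.14, a size left uncertain by its day 7 mean of 3.41, below the background gauge, and asparagine synthetase Asns by 0.98 ± 0.083, with the change of Asns called at the last step (1.10 ± 0.077). Atf3, which is also an immediate early gene, fell by 2.23 ± 0.16, and Ppp1r15a, which reverses the block on translation, by 0.54 ± 0.12. Of the other sensors and their proteases 3 of 10 rose and 1 fell over that span, beside the same shares of all genes, with Wfs1 highest (1.02 ± 0.11) and the Atf6-cleaving protease Mbtps1 lower (-0.28 ± 0.079).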

How the data were processed

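RNA of 14 pools of rat epididymis was measured on RatGene 2.0 ST arrays, 1 array per pool, and grouped by the age in the labels. The authors deposited log2 signals per transcript cluster, made with RMA (background correction, quantile normalization and probe summary) and the Transcriptome Analysis Console, per the submitters' processing notes and the labels. Versions, genome build and annotation release are not given in the sources used here. No scanner files were used here.

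Of 36685 clusters, 18511 carried 1 gene symbol in the platform annotation, 575 several and 17599 none listed. The cluster with the highest mean stood for a gene, which left 18166 genes. The model, with 1 mean per age over the 14 arrays, was that of limma 3.58.1 run in R 4.3.3 (functions lmFit and eBayes, tested on simulated data first), with contrasts between ages and between steps, and p-values were adjusted by Benjamini-Hochberg over all 18166 genes. Values in every pool are given for those with the 3 largest called rises or falls in a comparison, the 3 sensors, Xbp1 and Hspa5. Of each further list the 2 largest called rises and falls of a comparison could be named, and Cdc45 and the markers named fall outside this rule. The genes and lists were chosen with earlier results of these data known. Replicate numbers occur at every age, and same-numbered pools did not deviate from their age means together. Of 19 such pairs, 0 had a correlation above 0.1 (-0.143 to 0.0456), so pools were not treated as paired. The alternatives were quantile normalization, median centring, a filter on dim genes, a trended robust fit, the 2 ages alone, a replicate block, other ways to handle clusters and leaving out each pool. Promoter windows are RefSeq's in build GRCr8. The number of pools limits the precision.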

Additional observations from a re-analysis of the deposited data

Results flagged for a closer look

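One value stood apart among the 86 groups of 4 pools examined (43 genes at day 18 and at day 28), where chance alone gives about 1 in 20. Creb3l2 had a log2 signal of 10.19 in day 18 replicate 3, below the other 3 pools of that age (10.30 to 10.32), with a gap to the nearest of 0.849 of the whole range.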

How the results depend on the processing

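Of 3780 differences of single genes recomputed under the alternatives, 3645 were counted as kept, 98 lost a call, 37 gained one and 0 called ones changed sign. A difference that was not called either time was counted as kept even where its sign changed. With quantile normalization 6 genes rose and 5 fell at day 60 against day 28, and the median differences were 0.44 (day 18 against day 7), 0.37 (day 28 against day 18), -0.0086 (day 60 against day 28) and 0.82 (day 60 against day 7). With each array centred on its median these were 0.34, 0.27, 0.11 and 0.74, 21 genes rose at day 28 against day 18, 1 fell at day 60 against day 28, the middle step exceeded the first in 5 genes and was below it in 3, and the last step was below the middle in 7. Centring also moved the share of rises among all called genes to 31.7%, against 42.3% without it, at day 28 against day 18, and to 71.7%, against 55.2%, at day 60 against day 28. With genes below the median level left out, or with an intensity trend and robust hyperparameters, 5 genes fell at day 60 against day 28 and 1 had a last step above its middle one, and the median at day 60 against day 7 was 0.80 under the filter. Testing every cluster gave 3 genes with a middle step below the first and 11 with a last step below the middle. With the replicate block, 3 genes had a middle step below the first, and no other count moved by over 1.5 times. The cause of these shifts was not tested.

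Leaving out 1 pool at a time gave 26 to 27 rises and 4 to 6 falls at day 18 against day 7, 28 to 33 rises and 0 falls at day 28 against day 18, 6 to 10 rises and 3 to 5 falls at day 60 against day 28, and 33 to 34 rises and 3 falls at day 60 against day 7. The middle step was above the first in 5 to 10 genes and below it in 3 to 6, and the last was above the middle in 0 to 1 and below it in 10 to 18. The medians ran from 0.36 to 0.40, 0.31 to 0.35, 0.012 to 0.049 and 0.73 to 0.83 for the comparisons in that order. Signals near background leave the size of the rises of Agr2, Derl3 and Slc7a11 uncertain.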
